A study of Homo sapiens with 12 samples.

Results

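The genes described here were UBB, ZFAND2A, ZFAND2B, ZFAND5, VCP, NPLOC4, UFD1, UBQLN1 and UBQLN2, which are 9 of the 20332 genes in the deposited expression table and were taken from it by symbol. They have known roles on or around the route on which proteins marked with ubiquitin are unfolded and handed to the proteasome. These need not be their only roles. The genes were chosen with their response to copper already known. Their values with and without copper, and the difference of that response between the lines, are therefore given as a description with no test.

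Bulk RNA sequencing measured polyadenylated transcripts in KLE and Ishikawa cells, which are established human endometrial cancer lines. The groups were KLE cells after 24 h in 200 µM CuCl2, KLE cells without added copper, Ishikawa cells after 24 h in 200 µM CuCl2, and Ishikawa cells without added copper, each with 3 independent biological replicates, 12 libraries in all. The labels call the cells without copper both untreated and vehicle, and they are called untreated here. Each kind of cell is represented by 1 line, so tumour subtype, donor and culture history cannot be told apart between the lines.

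Ubiquitin is a small protein that is joined to other proteins, often in chains that mark them for breakdown. The ATPase p97, made from VCP, pulls such marked proteins out of membranes and complexes with its adaptor of UFD1 and NPLOC4. Ubiquilins carry them to the proteasome, the protease that degrades them, and ZFAND proteins, named for their AN1 zinc fingers, bind ubiquitin, p97 or the proteasome. Many genes of this route are known to be induced when misfolded proteins accumulate.

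Libraries held 14050275 to 25057003 counts. All 6 epithelial markers (PAX8, EPCAM, KRT8, KRT18, KRT19 and CDH1) were detected in every group, with summed levels of 5866 to 5921 TPM in copper-treated KLE cells and 5099 to 5384 TPM in untreated KLE cells, and of 2473 to 2600 TPM in copper-treated Ishikawa cells and 3578 to 4019 TPM in untreated Ishikawa cells. TPM are the authors' transcript abundances scaled for transcript length and library total. The 6 fibroblast markers summed to at most 50.7 TPM, the 5 leukocyte markers to at most 4.08 TPM and the 4 endothelial markers to at most 4.04 TPM in any library, and their part in the results was not tested. The library of untreated Ishikawa replicate 2 stood apart. It had the most counts, its counts gave a chi-square per degree of freedom of 8.45 and 12.9 against the other untreated Ishikawa libraries, against 2.05 to 3.95 for all other pairs within a group, and the fibroblast gene DCN, at up to 13.6 TPM in that group, had 0 TPM there. Fold changes of the 9 genes that use it are also given without it.

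Promoters of 8 of the 9 genes were in the RefSeq table of GRCh38.p14 promoters, as 12 windows from 250 bases before to 50 bases after a start. Both NPLOC4 windows lie inside the annotated gene, far downstream of its annotated start, so they do not cover the promoter at that start. The windows of ZFAND2A, ZFAND2B, UBB and VCP, and some of ZFAND5, also lie inside the annotated gene and do not reach its outermost start. Of the 31 stretches of 20 bases after the start, 29 occur in annotated transcripts for ZFAND2B and all 31 for ZFAND2A. The windows of 2 pairs of related genes, ZFAND2A with ZFAND2B and UBQLN1 with UBQLN2, are shown because the members of each pair differed in their values with copper. The windows lie at chr7:1160147-1160446 (minus strand), chr2:219206532-219206831 (plus strand), chr9:83707909-83708208 (minus strand) and chrX:56563377-56563676 (plus strand). Capitals mark motif matches, searched on both strands.
ZFAND2A: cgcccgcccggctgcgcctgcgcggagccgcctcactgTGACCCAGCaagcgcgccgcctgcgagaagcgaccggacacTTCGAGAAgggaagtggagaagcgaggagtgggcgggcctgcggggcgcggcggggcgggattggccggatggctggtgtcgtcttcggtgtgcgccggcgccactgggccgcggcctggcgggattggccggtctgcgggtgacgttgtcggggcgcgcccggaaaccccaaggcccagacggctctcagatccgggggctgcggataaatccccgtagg
ZFAND2B: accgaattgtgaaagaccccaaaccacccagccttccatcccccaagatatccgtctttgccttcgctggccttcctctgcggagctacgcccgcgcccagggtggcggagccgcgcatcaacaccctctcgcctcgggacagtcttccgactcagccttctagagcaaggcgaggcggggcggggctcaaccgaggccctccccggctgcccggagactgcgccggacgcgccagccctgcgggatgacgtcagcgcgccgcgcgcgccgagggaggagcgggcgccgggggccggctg
UBQLN1: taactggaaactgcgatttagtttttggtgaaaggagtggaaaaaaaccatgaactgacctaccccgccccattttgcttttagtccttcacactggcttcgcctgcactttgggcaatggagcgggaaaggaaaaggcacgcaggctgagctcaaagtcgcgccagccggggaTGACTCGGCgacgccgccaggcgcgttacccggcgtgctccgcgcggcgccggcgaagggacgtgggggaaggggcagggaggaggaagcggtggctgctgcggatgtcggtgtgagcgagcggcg
UBQLN2: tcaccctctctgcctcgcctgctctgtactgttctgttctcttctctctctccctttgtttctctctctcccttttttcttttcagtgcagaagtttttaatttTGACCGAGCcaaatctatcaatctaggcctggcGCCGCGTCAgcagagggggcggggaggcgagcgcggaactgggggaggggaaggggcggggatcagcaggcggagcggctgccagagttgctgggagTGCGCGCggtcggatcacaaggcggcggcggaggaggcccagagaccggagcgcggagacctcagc

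The motifs searched were the full heat shock element of alternating GAA and TTC units, bound by heat shock factors, the antioxidant response element core TGACNNNGC or GCNNNGTCA, bound by NRF2, and the metal response element cores TGCACNC and TGCGCNC, with GNGTGCA and GNGCGCA on the other strand, bound by MTF1. A shorter pair of heat shock units, TTCNNGAA or GAANNTTC, which lies within every full heat shock element searched, was added after the sequences had been seen. The ZFAND2A window held the antioxidant core TGACCCAGC at -212 to -204 from the start, where -1 is the base before it, and the pair of heat shock units TTCGAGAA at -171 to -164. No match lay in the ZFAND2B window. The UBQLN1 window held the antioxidant core TGACTCGGC at -76 to -68. That of UBQLN2 held the same core as TGACCGAGC at -146 to -138 and as GCCGCGTCA at -113 to -105, and the metal core TGCGCGC at -16 to -10. None of the 12 windows held the full heat shock element. For NPLOC4, UBB, VCP, ZFAND2A and ZFAND2B that says nothing of a promoter at the outermost annotated start. Of all 35116 promoters in the table, 0.49% held that element, 13.3% the antioxidant core, 13.5% the pair of heat shock units and 29.6% a metal core. These matches describe letters in the windows and not binding, and the absence of a match says only that the letters are not in the window.

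With copper, 8 of the 9 genes were higher in KLE cells and the same 8 were higher in Ishikawa cells, and ZFAND2B was the exception in each line. The log2 fold changes of these 8 genes ranged from 0.19 (UBQLN2) to 1.75 (ZFAND2A) in KLE cells and from 0.30 (UBQLN2) to 4.43 (ZFAND2A) in Ishikawa cells. Fold changes are copper-treated over untreated from edgeR on the counts, each with its SE, and the medians over all genes tested were 0.00 in KLE cells and -0.01 in Ishikawa cells. A gene is said to be called where edgeR's Benjamini-Hochberg adjusted p was under 0.05, and no call is given for the 9 genes in these contrasts. Of all 13031 genes tested in KLE cells 25.6% were called higher and 50.8% in either direction, and of all 13359 in Ishikawa cells 33.8% were called higher and 69.1% in either direction. In each line the same 8 genes had all 3 copper-treated libraries above all 3 untreated ones, as had 28.4% of genes in KLE cells and 32.1% in Ishikawa cells, while 28.3% and 40.8% had all 3 below. Nothing is read from the members' counts, since the members were chosen on this contrast. In bulk samples fewer cells of a kind and less RNA per cell cannot be told apart.

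**Figure D1:**
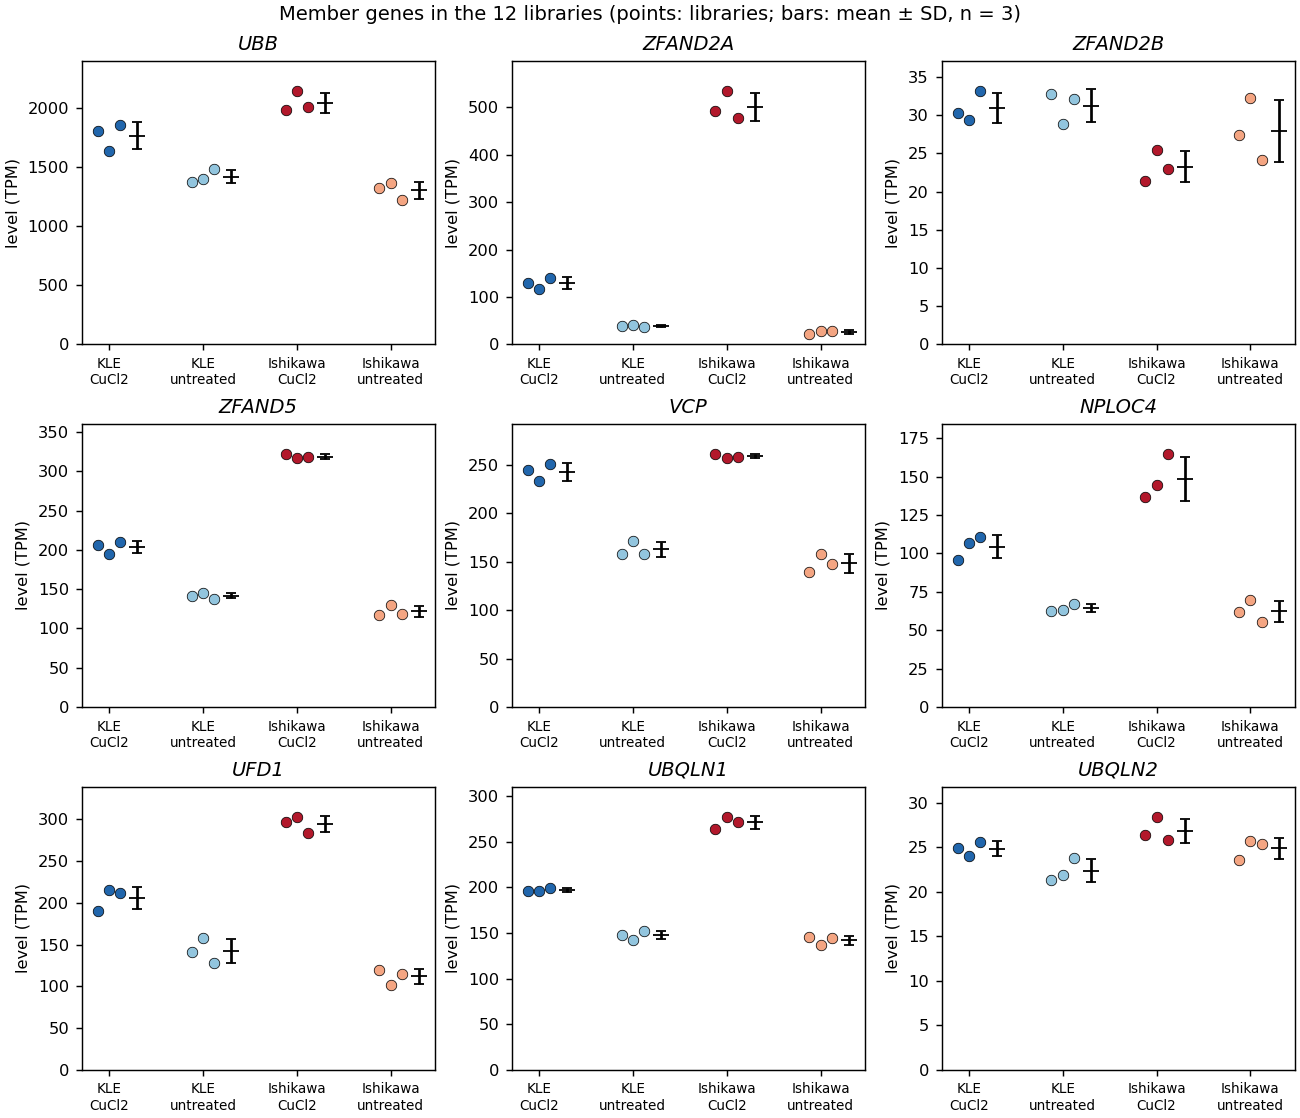
Level of each gene in TPM (vertical axes, from 0) in the 12 libraries, with copper-treated and untreated KLE cells on the left and copper-treated and untreated Ishikawa cells on the right; points are libraries and bars are the mean ± SD of 3. The copper-treated points lie above the untreated ones of the same line in every panel other than ZFAND2B, by a wide margin for ZFAND2A and by a narrow one for UBQLN2.

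UBB (ENSG00000170315, chromosome 17, 16380798 to 16382745, plus strand, GRCh38) encodes ubiquitin as a chain of repeats, and is known to be induced by stress. UBB was at 1808, 1637 and 1859 TPM in copper-treated KLE cells, against 1377, 1397 and 1487 TPM in untreated KLE cells. In Ishikawa cells it was at 1981, 2142 and 2012 TPM with copper, against 1325, 1364 and 1225 TPM without. It had the highest level of the 9 genes in every group, and the libraries with and without copper did not overlap in either line. The log2 fold change was 0.35 ± 0.04 in KLE cells and 0.83 ± 0.04 in Ishikawa cells. By mean TPM UBB ranked at 55 of 20332 genes in copper-treated KLE cells and at 76 in untreated KLE cells, and at 49 in copper-treated Ishikawa cells and at 85 in untreated Ishikawa cells. Of its 31-base stretches 23.9% occur in other genes as well, mostly the pseudogene UBBP4, and 28.4% of its exonic bases overlap an antisense gene, AC093484.3. Whether the library kept strand is not given in the sources used here, so reads of UBB and of these genes may be shared.

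RPS27A, which encodes ubiquitin fused to a ribosomal protein, was not among the chosen genes, and its response was tested with edgeR. Like the other related genes below, it was listed with earlier results of these data known, so the test is not free of that knowledge. RPS27A rose by a log2 fold change of 0.12 ± 0.03 in KLE cells (Benjamini-Hochberg adjusted p = 0.00247) and of 0.21 ± 0.06 in Ishikawa cells (adjusted p = 0.0042). The call on RPS27A was lost with limma on TPM in both lines, without KLE copper replicate 3 in KLE cells, and with upper-quartile factors and library totals in Ishikawa cells (adjusted p from 4.68e-04 to 0.15 over the alternatives in KLE cells and from 3.7e-04 to 0.738 in Ishikawa cells). The KLE response of RPS27A minus its Ishikawa response was -0.03 ± 0.07, which was not called (edgeR, adjusted p = 0.743).

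ZFAND2A (ENSG00000178381, chromosome 7, 1152071 to 1160759, minus strand) encodes an AN1 zinc finger protein known as AIRAP, which is induced by arsenite and associates with the proteasome. ZFAND2A was at 130.1, 117 and 141 TPM in copper-treated KLE cells, against 39.5, 40.5 and 37.0 TPM in untreated KLE cells. In Ishikawa cells it was at 492, 534 and 477 TPM with copper, against 21.8, 28.7 and 28.8 TPM without. The groups lay far apart in both lines. Its log2 fold change was 1.75 ± 0.07 in KLE cells, or 3.37-fold, and 4.43 ± 0.08 in Ishikawa cells, or 21.6-fold. These were the largest fold changes of the 9 genes in each line, at rank 94 from the highest among 13031 genes in KLE cells and 109 among 13359 in Ishikawa cells. By mean TPM ZFAND2A ranked at 1347 of 20332 genes in copper-treated KLE cells and at 4528 in untreated KLE cells, and at 236 in copper-treated Ishikawa cells and at 5993 in untreated Ishikawa cells. Its counts lay between 140 and 4071 per library.

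ZFAND2B (ENSG00000158552, chromosome 2, 219195237 to 219209651, plus strand) encodes AIRAPL, the membrane-associated relative of AIRAP. ZFAND2B was at 30.3, 29.3 and 33.1 TPM in copper-treated KLE cells, against 32.8, 28.8 and 32.1 TPM in untreated KLE cells. It was at 21.4, 25.4 and 23.0 TPM in copper-treated Ishikawa cells, against 27.4, 32.2 and 24.1 TPM in untreated Ishikawa cells. The libraries overlapped in both lines, and the log2 fold change was 0.03 ± 0.09 in KLE cells and -0.03 ± 0.12 in Ishikawa cells, where it was 0.05 ± 0.12 without untreated replicate 2. On library totals, without TMM factors, it was -0.0026 in KLE cells and -0.19 in Ishikawa cells, on a scale on which the median of all genes was -0.03 in KLE cells and -0.17 in Ishikawa cells. In TPM the ratio of ZFAND2A to ZFAND2B was 4.18 ± 0.158 in copper-treated KLE cells and 1.25 ± 0.135 in untreated KLE cells. It was 21.6 ± 1.23 in copper-treated Ishikawa cells and 0.961 ± 0.207 in untreated Ishikawa cells (SD, n = 3 each).

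ZFAND5 (ENSG00000107372, chromosome 9, 72351425 to 72365235, minus strand) encodes a zinc finger protein that binds the proteasome and stimulates it. ZFAND5 was at 207, 195 and 210.3 TPM in copper-treated KLE cells, against 142, 145 and 138 TPM in untreated KLE cells. In Ishikawa cells it was at 322, 317 and 318 TPM with copper, against 118, 130.2 and 118 TPM without. The groups did not overlap in either line, and the log2 fold changes were 0.55 ± 0.04 in KLE cells and 1.47 ± 0.05 in Ishikawa cells. Of its 31-base stretches 9.86% occur in other genes, the most in a processed pseudogene, AC011497.2. The other ZFAND genes, outside the chosen 9 but listed with earlier results of these data known, are ZFAND1, ZFAND3, ZFAND4 and ZFAND6. In KLE cells 2 of these 4 were called higher and 0 lower, and in Ishikawa cells 1 was called higher and 0 lower. ZFAND3 rose by 0.31 ± 0.05 in KLE cells (edgeR, Benjamini-Hochberg adjusted p = 7.5e-07) and by 1.09 ± 0.06 in Ishikawa cells (adjusted p = 1.2e-09). ZFAND4 was at 0.29 ± 0.11 in KLE cells (edgeR, adjusted p = 0.019), a call lost with DESeq2, with limma on TPM, without KLE copper replicate 2 and without untreated KLE replicate 1 (adjusted p from 0.0153 to 0.0828 over the alternatives).

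VCP (ENSG00000165280, chromosome 9, 35056064 to 35073249, minus strand) encodes the p97 ATPase itself. VCP was at 244, 233 and 251 TPM in copper-treated KLE cells, against 158, 172 and 158 TPM in untreated KLE cells. It was at 261, 257 and 258 TPM in copper-treated Ishikawa cells, against 139, 158 and 148 TPM in untreated Ishikawa cells. No copper-treated library fell among the untreated ones in either line. The log2 fold change was 0.54 ± 0.03 in KLE cells and 0.98 ± 0.05 in Ishikawa cells. Without untreated Ishikawa replicate 2, which had the highest untreated VCP level in that line, it was 1.04 in Ishikawa cells.

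NPLOC4 (ENSG00000182446, chromosome 17, 81556887 to 81648465, minus strand) and UFD1 (ENSG00000070010, chromosome 22, 19449910 to 19479215, minus strand) encode the parts of the adaptor through which p97 grips ubiquitin chains. NPLOC4 was at 96.1, 107 and 110.5 TPM in copper-treated KLE cells, against 62.4, 63.5 and 67.2 TPM in untreated KLE cells. In Ishikawa cells it was at 137, 144 and 165 TPM with copper, against 61.7, 69.6 and 55.7 TPM without. The groups were apart in both lines, with log2 fold changes of 0.60 ± 0.04 in KLE cells and 1.27 ± 0.06 in Ishikawa cells. UFD1 was at 191, 215 and 211 TPM in copper-treated KLE cells, against 142, 157 and 128 TPM in untreated KLE cells. In Ishikawa cells its levels were 297, 303 and 284 TPM with copper, against 119, 102 and 114 TPM without. Here too the groups did not overlap, and the log2 fold changes were 0.62 ± 0.05 in KLE cells and 1.75 ± 0.06 in Ishikawa cells. By fold change on the counts UFD1 came next after ZFAND2A in Ishikawa cells. In KLE cells UFD1 and NPLOC4 differed by less than their SE, and with limma on log2(TPM + 1) UFD1 was at 0.53 and NPLOC4 at 0.69 there.

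The counts and TPM of UFD1 and NPLOC4 did not move by the same amount. The count per TPM, which follows the transcript length that the authors' quantification assigned to a gene, was 0.17 log2 units higher for UFD1 in copper-treated than in untreated Ishikawa cells, without overlap, a shift that 5.12% of 7790 well-measured genes matched in size. For NPLOC4 it was -0.16 in Ishikawa cells, also without overlap. With limma on log2(TPM + 1) the change of UFD1 with copper in Ishikawa cells was 1.39. Antisense genes overlap 8.44% of the exonic bases of UFD1.

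UBQLN1 (ENSG00000135018, chromosome 9, 83659963 to 83708203, minus strand) and UBQLN2 (ENSG00000188021, chromosome X, 56563639 to 56567868, plus strand) encode ubiquilins, shuttle proteins with one end for the proteasome and one for ubiquitin. UBQLN2 is known for mutations in amyotrophic lateral sclerosis. UBQLN1 was at 196, 196 and 199 TPM in copper-treated KLE cells, against 148, 143 and 152 TPM in untreated KLE cells. It was at 264, 277 and 272 TPM in copper-treated Ishikawa cells, against 145, 137 and 145 TPM in untreated Ishikawa cells. The groups were well apart, with log2 fold changes of 0.45 ± 0.03 in KLE cells and 1.08 ± 0.05 in Ishikawa cells. UBQLN2 was at 24.9, 24.0 and 25.6 TPM in copper-treated KLE cells, against 21.3, 21.9 and 23.8 TPM in untreated KLE cells. In Ishikawa cells it was at 26.3, 28.4 and 25.8 TPM with copper, against 23.5, 25.7 and 25.3 TPM without. In each line the lowest copper-treated library lay only just above the highest untreated one. The log2 fold change of UBQLN2 was 0.19 ± 0.06 in KLE cells and 0.30 ± 0.06 in Ishikawa cells, where it was 0.14 on library totals and 0.11 with limma on log2(TPM + 1).

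In TPM the ratio of UBQLN1 to UBQLN2 was 7.95 ± 0.193 in copper-treated KLE cells and 6.62 ± 0.288 in untreated KLE cells. It was 10.1 ± 0.387 in copper-treated Ishikawa cells and 5.73 ± 0.431 in untreated Ishikawa cells (SD, n = 3 each). The libraries with and without copper did not overlap in this ratio in either line. The transcripts of UBQLN1 and UBQLN2 share 6 of their 31-base stretches, which is 0.14% of those of each gene.

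**Figure D2:**
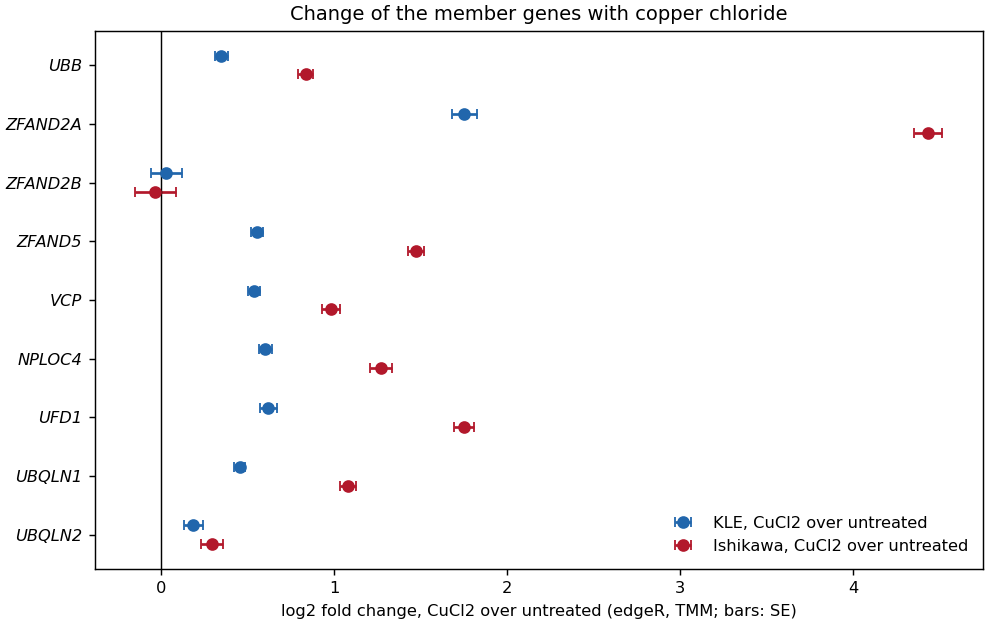
Log2 fold change of each gene, copper-treated over untreated, in KLE cells (blue, upper mark) and Ishikawa cells (red, lower mark), from edgeR on the counts; bars are SE. The Ishikawa mark lies to the right of the KLE mark for 8 genes, among which the difference of UBQLN2 turns sign on library totals and on TPM, with the widest gap for ZFAND2A (1.75 in KLE cells and 4.43 in Ishikawa cells), and ZFAND2B lies close to 0 in both lines.

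The response was smaller in KLE than in Ishikawa cells by value for 7 of the 9 genes, and for UBQLN2 the sign of the difference depended on the scaling. Over all genes tested the median absolute log2 fold change was also smaller in KLE cells, at 0.195 against 0.419 in Ishikawa cells. A smaller response in KLE cells was therefore not particular to these genes. The KLE minus Ishikawa difference of the log2 fold changes, from one fit of all 12 libraries, was -2.62 ± 0.12 for ZFAND2A, -1.08 ± 0.08 for UFD1 and -0.86 ± 0.05 for ZFAND5. It was between -0.61 and -0.39 for NPLOC4, UBQLN1, UBB and VCP, and for VCP it was -0.22 with limma on log2(TPM + 1). It was -0.05 ± 0.08 for UBQLN2, but 0.01 on library totals and 0.04 with limma on log2(TPM + 1), and 0.12 ± 0.15 for ZFAND2B. Of all 13663 genes tested 20.8% were called lower in this difference and 45.4% in either direction, and no call is given for the 9 genes. The difference uses the same libraries as the response of each line, and its values are a description of genes chosen with them known.

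Without untreated Ishikawa replicate 2 the log2 fold change in Ishikawa cells was 4.44 for ZFAND2A, 1.69 for UFD1, 1.49 for ZFAND5, 1.34 for NPLOC4, 1.02 for UBQLN1, 0.84 for UBB and 0.29 for UBQLN2, beside the values of VCP and ZFAND2B given above. The KLE minus Ishikawa difference was then -2.64 for ZFAND2A, -1.02 for UFD1, -0.88 for ZFAND5, -0.69 for NPLOC4, -0.51 for UBQLN1, -0.46 for VCP, -0.45 for UBB, -0.06 for UBQLN2 and 0.03 for ZFAND2B.

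The order of the 9 genes by mean TPM differed between the groups. In copper-treated KLE cells it was UBB, VCP, UFD1, ZFAND5, UBQLN1, ZFAND2A, NPLOC4, ZFAND2B and UBQLN2, in which UFD1 overlapped ZFAND5 and ZFAND5 overlapped UBQLN1. In untreated KLE cells it was UBB, VCP, UBQLN1, UFD1, ZFAND5, NPLOC4, ZFAND2A, ZFAND2B and UBQLN2, with UBQLN1 overlapping UFD1 and UFD1 overlapping ZFAND5. In copper-treated Ishikawa cells it was UBB, ZFAND2A, ZFAND5, UFD1, UBQLN1, VCP, NPLOC4, UBQLN2 and ZFAND2B, and no neighbours overlapped. In untreated Ishikawa cells it was UBB, VCP, UBQLN1, ZFAND5, UFD1, NPLOC4, ZFAND2B, ZFAND2A and UBQLN2, with overlaps between VCP and UBQLN1, between ZFAND5 and UFD1, and among the last 3. ZFAND2A therefore stood at place 6 in copper-treated KLE cells and 7 in untreated KLE cells, and at place 2 in copper-treated Ishikawa cells and 8 in untreated Ishikawa cells.

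Without copper, the lines were compared with a test, since the members were not chosen on this contrast. The untreated libraries do enter the copper responses known at the choice. The test is therefore not free of that choice, and nothing is read from the count of members called. ZFAND2A, UFD1, ZFAND5 and UBB were higher in untreated KLE than in untreated Ishikawa cells, and 0 members were lower. That is 4 of 9, where 24.5% of all 13663 genes were called higher and 50.0% were called in either direction. The log2 fold change was 0.62 ± 0.10 for ZFAND2A (edgeR, Benjamini-Hochberg adjusted p = 2.2e-05) and 0.44 ± 0.06 for UFD1 (adjusted p = 7.7e-07). ZFAND2A averaged 39.0 ± 1.81 TPM in untreated KLE cells and 26.5 ± 4.01 TPM in untreated Ishikawa cells, and UFD1 averaged 142 ± 14.6 TPM in untreated KLE cells and 112 ± 8.78 TPM in untreated Ishikawa cells (SD, n = 3 each). All 3 KLE libraries were above all 3 Ishikawa ones for both genes. The change was 0.19 ± 0.04 both for ZFAND5 (edgeR, adjusted p = 2.8e-04) and for UBB (adjusted p = 0.00113), whose call was lost with limma on TPM (adjusted p from 4.52e-04 to 0.106 over the alternatives).

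The other 5 members did not pass the test between the untreated lines with all 12 libraries. ZFAND2B differed by 0.24 ± 0.10 (edgeR, Benjamini-Hochberg adjusted p = 0.0604), VCP by 0.11 ± 0.05 (adjusted p = 0.0567) and NPLOC4 by 0.06 ± 0.06 (adjusted p = 0.369). UBQLN1 differed by 0.09 ± 0.04 (edgeR, adjusted p = 0.0804) and UBQLN2 by -0.09 ± 0.06 (adjusted p = 0.186). Without untreated Ishikawa replicate 2, the library that stood apart, 7 members were called higher in KLE cells. Of all 13785 genes tested in that setting, 3212 were called higher and 6550 in either direction. Nothing is read from the count of members here either. Added were ZFAND2B at 0.33 (edgeR, adjusted p = 0.0138, range over its alternatives 0.0138 to 0.246), VCP at 0.18 (adjusted p = 2e-04, range 2e-04 to 0.229) and NPLOC4 at 0.14 (adjusted p = 0.0206, range 0.0206 to 0.966). In that setting ZFAND2A was at 0.64, UFD1 at 0.39, ZFAND5 at 0.21, UBB at 0.20, UBQLN1 at 0.04 and UBQLN2 at -0.09. VCP was also called without KLE copper replicate 3, and UBQLN1 without untreated Ishikawa replicate 3. The untreated libraries of both lines enter the copper responses as well, so these comparisons are not independent.

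The rest of the pathway was followed in 54 related genes, listed by their known roles with earlier results of these data known, of which 51 were expressed enough to be tested. The other 3 were not. In KLE cells 24 of the 51 rose, 6 fell and 21 were not called, against 25.6% of all genes rising and 25.2% falling. In Ishikawa cells 27 rose, 13 fell and 11 were not called, against 33.8% of all genes rising and 35.3% falling. The median log2 fold change of the 51 was 0.12 in KLE cells and 0.19 in Ishikawa cells. On library totals the Ishikawa counts were 21 higher and 16 lower, and those over all genes 3370 higher and 6068 lower in place of 4514 higher and 4714 lower. With limma on log2(TPM + 1) they were 21 and 15 of the 51, and 2996 higher and 5619 lower over all genes. Without untreated replicate 2 the Ishikawa counts were 26 higher and 14 lower, and the related genes named below and RPS27A kept their side of the threshold in the Ishikawa response and in the difference.

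Of the ubiquitin-activating enzymes, which load ubiquitin at the start of the cascade, UBA6 rose and UBA1, the main one, fell in both lines. UBA6 rose by 0.37 ± 0.04 in KLE cells (edgeR, Benjamini-Hochberg adjusted p = 3.2e-11) and by 0.92 ± 0.05 in Ishikawa cells (adjusted p = 4.6e-10). UBA1 fell by 0.09 on the log2 scale in KLE cells (edgeR, adjusted p = 0.0095) and by 0.21 in Ishikawa cells (adjusted p = 0.00067). The KLE call on UBA1 was lost without copper replicate 3 and without untreated replicate 3 of that line (adjusted p from 1.88e-04 to 0.0745 over the alternatives).

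Among 25 cofactors and partners of p97, 10 rose and 3 fell in KLE cells, and 14 rose and 6 fell in Ishikawa cells. PLAA, a ubiquitin-binding partner of p97, had the largest rise in each line, with 0.66 ± 0.04 in KLE cells (edgeR, Benjamini-Hochberg adjusted p = 5.9e-16) and 1.49 ± 0.06 in Ishikawa cells (adjusted p = 2.6e-11). UBXN10, a p97 adaptor with a role in cilia, had the largest fall, by 1.34 on the log2 scale in KLE cells (edgeR, adjusted p = 2.9e-11) and by 1.03 in Ishikawa cells (adjusted p = 7e-07). UBXN8, an adaptor in the membrane of the endoplasmic reticulum, rose by 1.19 ± 0.09 in Ishikawa cells (edgeR, adjusted p = 1.6e-08), while its change in KLE cells was 0.18 ± 0.09 (adjusted p = 0.117). The difference of the UBXN8 responses, KLE minus Ishikawa, was -0.95 ± 0.13 (edgeR, adjusted p = 2.6e-06).

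The 5 tested shuttle receptors other than UBQLN1 and UBQLN2 did not move as one. In KLE cells 2 rose and 1 fell, and in Ishikawa cells 1 rose and 2 fell. RAD23B, which also works in DNA repair, rose by 0.33 ± 0.03 in KLE cells (edgeR, Benjamini-Hochberg adjusted p = 1e-10) and by 0.86 ± 0.04 in Ishikawa cells (adjusted p = 1.7e-10). UBQLN4, the closest tested relative of the chosen ubiquilins, fell by 0.30 on the log2 scale in Ishikawa cells (edgeR, adjusted p = 0.00026), and its change in KLE cells was -0.11 ± 0.05 (adjusted p = 0.0504). In KLE cells UBQLN4 was called lower with upper-quartile factors, library totals and another count filter, and without KLE copper replicate 2 (edgeR, adjusted p from 0.00667 to 0.0416). DDI2, a protease with a ubiquitin-like domain, fell by 0.15 in KLE cells (edgeR, adjusted p = 0.00449), a call lost with limma on TPM (adjusted p from 2.74e-04 to 0.0986 over the alternatives).

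Of 8 deubiquitinases among the related genes, 5 rose in each line, while 1 fell in KLE cells and 2 fell in Ishikawa cells. Over all genes 25.6% rose and 25.2% fell in KLE cells, and 33.8% rose and 35.3% fell in Ishikawa cells. UCHL1, a ubiquitin hydrolase best known from neurons, rose by 1.15 ± 0.09 in KLE cells (edgeR, Benjamini-Hochberg adjusted p = 9.1e-14) and by 1.63 ± 0.10 in Ishikawa cells (adjusted p = 1.3e-09). USP13 fell by 0.32 on the log2 scale in KLE cells (edgeR, adjusted p = 8.5e-06) and by 0.88 in Ishikawa cells (adjusted p = 3.1e-08). OTUB2 moved in opposite directions. Its level was 14.8, 12.8 and 13.5 TPM in copper-treated KLE cells, against 7.22, 8.69 and 9.51 TPM in untreated KLE cells, and 5.00, 4.78 and 4.60 TPM in copper-treated Ishikawa cells, against 7.44, 7.57 and 7.04 TPM in untreated Ishikawa cells. The log2 fold change of OTUB2 was 0.69 ± 0.08 in KLE cells (edgeR, adjusted p = 4.2e-09) and -0.48 ± 0.11 in Ishikawa cells (adjusted p = 0.00141), and the difference was 1.23 ± 0.14 (adjusted p = 2.2e-07).

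Of the BAG6 complex, which catches misplaced membrane proteins, 1 of 4 genes rose and 0 fell in KLE cells, and 2 rose and 2 fell in Ishikawa cells. GET4 rose by 0.25 ± 0.06 in KLE cells (edgeR, Benjamini-Hochberg adjusted p = 5e-04). In Ishikawa cells SGTA rose by 0.46 ± 0.07 (edgeR, adjusted p = 0.00012) and UBL4A fell by 0.52 on the log2 scale (adjusted p = 6.1e-05).

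**Figure D3:**
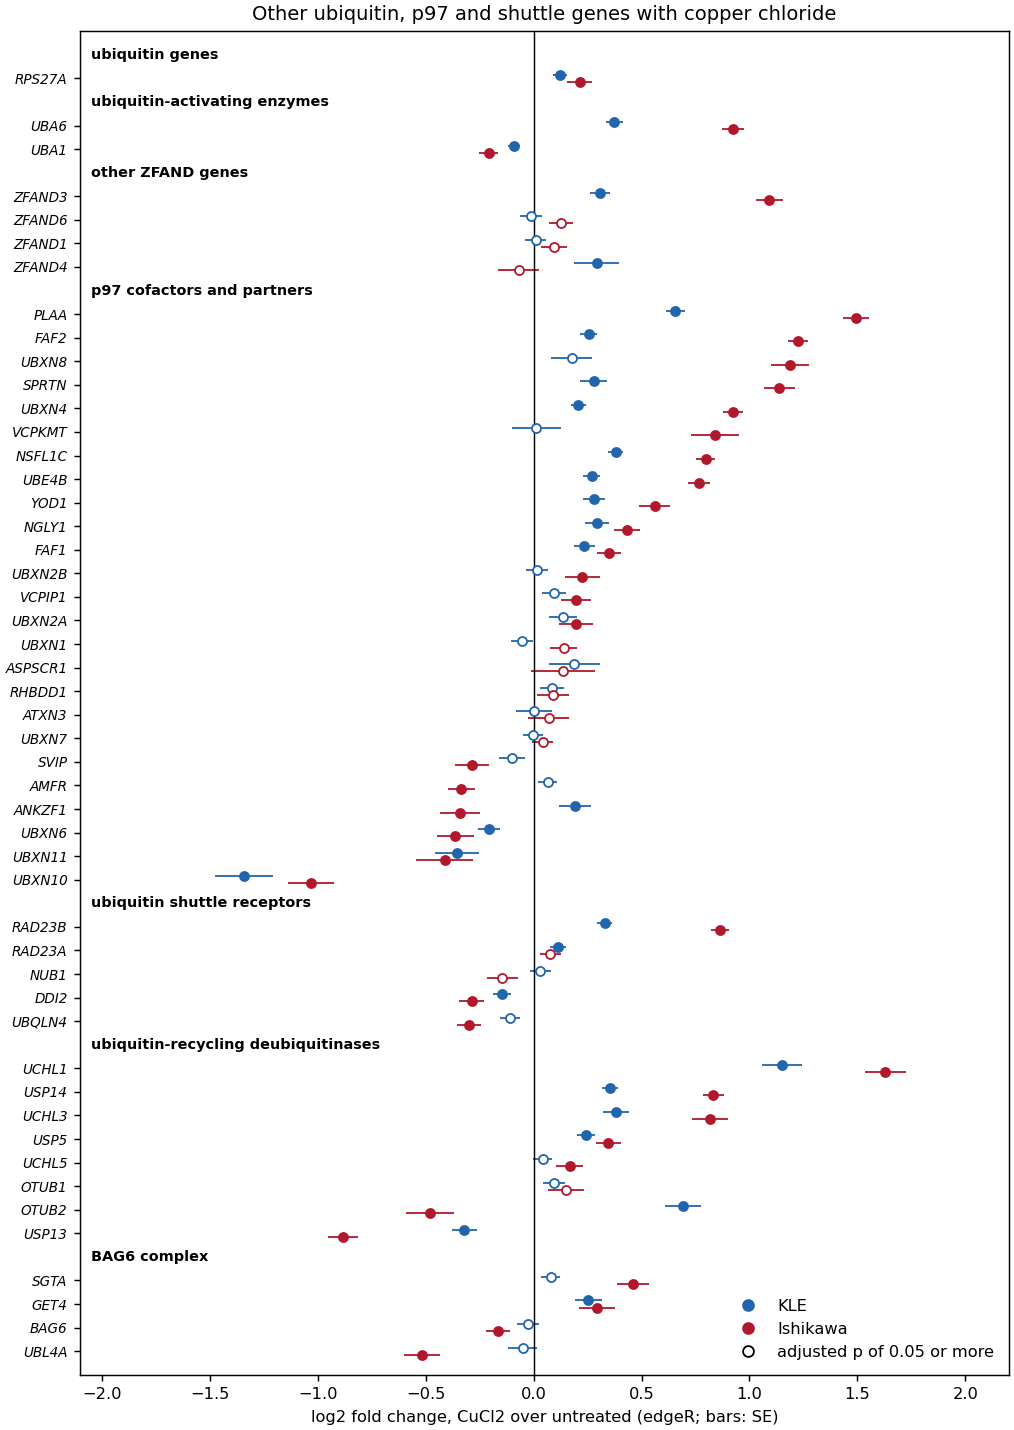
Log2 fold change, copper-treated over untreated, of 49 of the 51 tested related genes by group, in KLE cells (blue, upper mark) and Ishikawa cells (red, lower mark), from edgeR on the counts; bars are SE and open marks had an adjusted p of 0.05 or more. PLAA and UCHL1 lie farthest to the right, UBXN10 farthest to the left, and OTUB2 has its marks on opposite sides of 0.

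The difference of the responses was called for 27 of the 51 related genes, 11 higher and 16 lower in KLE than in Ishikawa cells, where 24.6% and 20.8% of all 13663 genes were. The median difference of the 51 was -0.05, beside 0.03 over all genes. Over all genes 3358 were called higher and 2848 lower, and 3494 higher and 1906 lower with limma on log2(TPM + 1). The count of 11 was 7 with DESeq2. It was also 6, 7 and 5 without Ishikawa copper replicate 1, 2 and 3, 7 without KLE copper replicate 3 and 6 without untreated KLE replicate 1. Between the untreated lines 16 of the 51 were higher and 9 lower in KLE cells, where 24.5% and 25.6% of all genes were. RPS27A (-0.03 ± 0.05, edgeR, Benjamini-Hochberg adjusted p = 0.61) did not pass that test.

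The genes whose profile was most like that of ZFAND2A over the 12 libraries were HSPH1, TFEC, THBS1, MLC1 and DNAJB1, by the root mean square difference of log2 CPM, counts scaled to the library total with TMM factors, after each gene's mean had been subtracted. The difference was 0.197 for HSPH1, a chaperone of the HSP110 family, 0.261 for TFEC, a transcription factor, 0.288 for THBS1, a matrix protein, 0.323 for MLC1 and 0.325 for DNAJB1, a chaperone of the HSP40 family, while the profile of ZFAND2A itself had a root mean square of 1.70. TFEC and MLC1 were low, at a mean log2 CPM of -2.14 and -3.04 in untreated KLE cells and -2.85 and -3.04 in untreated Ishikawa cells. MLC1 had the same value in every untreated library, and TFEC in untreated Ishikawa replicates 1 and 2. That value is the floor that log2 CPM takes without counts, so their likeness to ZFAND2A is partly set by it. HSPH1 was at 6.82 in copper-treated KLE cells and 5.41 in untreated KLE cells, and at 8.77 in copper-treated Ishikawa cells and 4.71 in untreated Ishikawa cells on that scale. Among the 13417 genes compared, the nearest to UBB were AP2B1 (0.0436), MMADHC, PTPN1, LSG1 and KCTD5, and the nearest to VCP were HPS5 (0.0519), TNFAIP1, TRIO, MAP2K1 and LMTK2. Likeness over 4 groups of 3 libraries is mostly likeness of the group means.

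**Figure D4:**
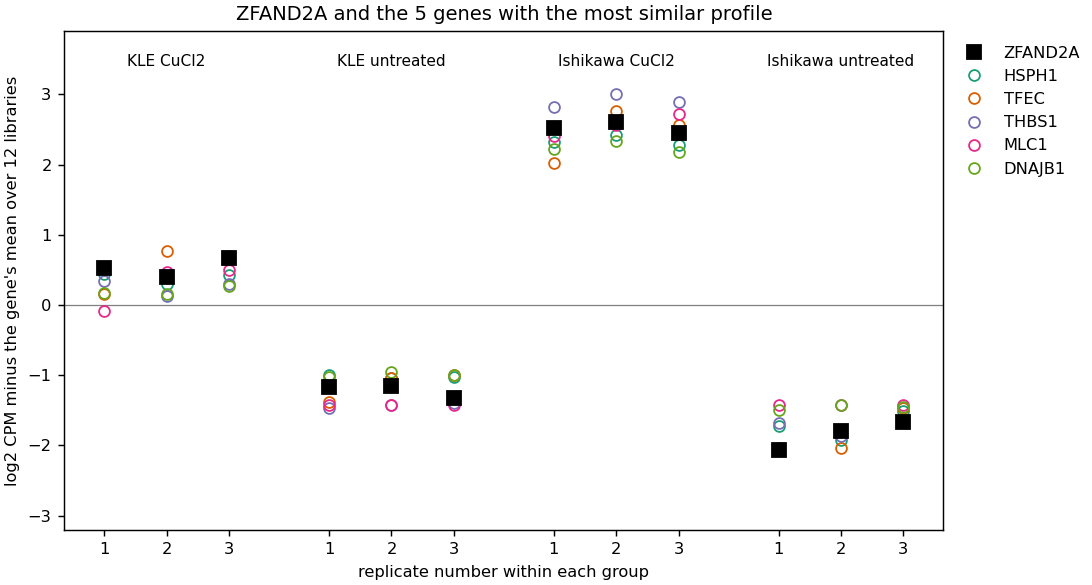
Log2 CPM minus the gene's own mean over the 12 libraries (vertical axis) for ZFAND2A (black squares) and the 5 genes with the most similar profile (circles), by library. All 6 genes are highest in copper-treated Ishikawa cells, next in copper-treated KLE cells, and below 0 in the untreated libraries of both lines.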

How the data were processed

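RNA was measured in 12 libraries of 2 lines, with replicates as the labels give them. The submitters' processing notes name fastp 0.18.0, HISAT2 2.1.0, Bowtie2 2.2.8, RSEM, R 4.2.2, DESeq2 and the build GRCh38.p14, with no role for any of them. The authors deposited expected counts (12.8 to 14.1% of values in a library are not whole) and the same values rounded by the authors to whole counts, which every test used. The authors also deposited TPM, as do the files whose names say FPKM by their own headers, so the alternative planned on FPKM or TPM ran on TPM. No per-sample column was left unused.

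Each line's copper response was tested with edgeR 4.0.16 in its 6 libraries: TMM factors, filterByExpr with a minimum count of 10, glmQLFit with robust estimation, a two-sided test and a Benjamini-Hochberg threshold of 0.05. The response difference and the untreated lines were contrasts of one fit of the 12 libraries. The SE is the absolute log2 fold change over the square root of F. The fits were run on simulated data in which 200 genes changed. Many more genes were called here, so the simulation does not test the scaling where many genes move. Alternatives were other scalings and count filters, DESeq2 1.42.0, limma 3.58.1 on log2(TPM + 1) and log2(TPM + 0.1), a replicate block, and leaving out each library. Totals ran from 14050275 to 25057003 counts, and depth bears on the precision of low genes.

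The members and the lists of related genes were chosen with earlier results of these data known. Named were the 9 members, RPS27A, the called related gene of each list with the largest rise and fall in each copper comparison and in their difference, and the 5 nearest profiles of ZFAND2A, UBB and VCP. Count per TPM was compared in genes with at least 10 TPM and 50 counts in every library. Positions come from GENCODE on GRCh38, promoters from RefSeq on GRCh38.p14. Some genes of these lists enter the counts and are not reported here by name. Amino acid sequences were not used here.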

Additional observations from a re-analysis of the deposited data

Results flagged for a closer look

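For 16 related genes named here, the response to copper differed between the lines by the test of the difference itself (edgeR contrast over all 12 libraries, Benjamini-Hochberg adjusted p under 0.05). Genes were named in part by this same test, so nothing is read from the count of 16. Of all 13663 genes 45.4% were called in it. Values are the KLE response minus the Ishikawa response, as log2. The response was lower in KLE cells for UBXN8 (-0.95, adjusted p = 2.6e-06), PLAA (-0.78, adjusted p = 3.2e-08), ZFAND3 (-0.73, adjusted p = 1e-07), UBA6 (-0.49, adjusted p = 7.6e-07) and RAD23B (-0.48, adjusted p = 2.7e-07). It was also lower in KLE cells for USP14, a deubiquitinase of the proteasome (-0.42, adjusted p = 7.1e-06), UCHL1 (-0.42, adjusted p = 0.01) and SGTA (-0.32, adjusted p = 0.0073). It was higher in KLE cells for OTUB2 (1.23, adjusted p = 2.2e-07), USP13 (0.62, adjusted p = 4.6e-06), ANKZF1 (0.59, adjusted p = 0.00034), UBL4A (0.52, adjusted p = 0.00033), ZFAND4 (0.42, adjusted p = 0.014), UBQLN4 (0.24, adjusted p = 0.0087), DDI2 (0.19, adjusted p = 0.03) and UBA1 (0.17, adjusted p = 0.0083).

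ANKZF1, which acts on stalled ribosomes with p97, rose by 0.19 in KLE cells and fell by 0.34 on the log2 scale in Ishikawa cells, and its KLE call was lost under 9 of 15 alternatives. For USP13, UBA1, UBQLN4 and DDI2 both lines' values were negative, and the fall was the smaller one in KLE cells. The difference was lost on TPM for USP13 and SGTA, with highest adjusted p-values over the alternatives of 0.619 and 0.171. For USP13 the mean count per TPM was 0.40 log2 units higher in copper-treated than in untreated KLE cells. The groups overlapped there, with 0.14 to 0.36 with copper inside -0.53 to 0.43 without. The difference of the responses was lost under 14 of 21 alternatives for DDI2. For ZFAND4 it was lost with DESeq2, without Ishikawa copper replicates 1 and 3 and without untreated KLE replicate 1, for UBA1 without each Ishikawa copper replicate in turn, without KLE copper replicate 3 and without untreated KLE replicate 1, and for UBQLN4 without Ishikawa copper replicate 3. The causes were not tested.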

How the results depend on the processing

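No called value changed direction under any alternative run. With all libraries kept, the counts of called genes in both directions together stayed within 1.5 times of those reported. Counts in one direction moved by more where DESeq2 called 7 related genes higher in the difference in place of 11, and where limma on TPM, with a pseudocount of 1 and of 0.1, called 2122 and 2127 genes higher in KLE cells in place of 3330, and 2996 and 2983 higher in Ishikawa cells in place of 4514. With a pseudocount of 0.1 it called 1841 lower in the difference in place of 2848. The cause was not tested. Leaving out each library in turn gave 5844 to 6238 called genes in KLE cells, with 21 to 25 related genes higher and 5 to 7 lower. In Ishikawa cells it gave 8546 to 9408 called genes, with 23 to 27 related genes higher and 12 to 14 lower. For the difference it gave 5598 to 6530 genes, with 5 to 11 related genes higher and 16 to 17 lower, and for the untreated lines 6035 to 6842 genes, with 13 to 16 related genes higher, 7 to 10 lower and 4 to 7 members called, where 7 came from leaving out untreated Ishikawa replicate 2. With library totals the median log2 fold change of all genes was -0.17 in Ishikawa cells and 0.10 in the difference. The labels do not say whether replicate numbers pair the samples. The correlations of same-numbered libraries' deviations were -0.15, -0.04 and -0.14 in KLE cells and 0.10, 0.21 and 0.11 in Ishikawa cells. There each copper-treated library correlated best with the untreated one of its own number, a hint from the data and not from the design. With a replicate block 6193 genes were called in KLE cells in place of 6617, 9355 in Ishikawa cells in place of 9228, 6145 in the difference in place of 6206 and 6775 between untreated lines in place of 6838. ZFAND2B, with 169 to 409 counts per library, had an SE of 0.09 in KLE cells and 0.12 in Ishikawa cells. The part of depth in this was not tested.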
